A study of Mus musculus with 3 samples.

Results

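The protein 4.1 family is a set of membrane-skeleton genes named after the band 4.1 protein of the red cell, and 7 of them were listed for description: Epb41, Epb41l1, Epb41l2, Epb41l3, Epb41l4a, Epb41l4b and Epb41l5. They are 7 of the 32285 features counted in each library, and they were listed by gene name, not by a threshold on measured values. Their raw counts were summed over the horizontal cells of 3 libraries of mouse retina, taken at P6, P8 and P11 (1 library for each postnatal day). All 3 libraries had the same genotype, Cx57icre;Ai14. In such mice a Cre recombinase driven from connexin 57, a gap junction gene of horizontal cells that is now called Gja10, switches on the red fluorescent protein of the Ai14 reporter, and the red cells were collected by fluorescence-activated sorting from papain-treated retina. No treatment is named, there was no group without the alleles, and the number of animals pooled into a library is not given in the sources used here. A barcode counted as a horizontal cell when it had at least 1000 detected genes, at most 10% mitochondrial UMIs and a UMI of at least 2 of the transcription factor genes Lhx1, Onecut1 and Onecut2. A UMI is the molecular tag that lets each captured transcript be counted once.

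Horizontal cells are the inhibitory interneurons of the outer retina, which contact rod and cone terminals and feed back on them. Proteins of the 4.1 family carry a FERM domain, which binds the cytoplasmic tails of membrane proteins. The products of Epb41 (the red cell form), Epb41l1 (the neuronal form), Epb41l2 (the general form) and Epb41l3 (the brain form) also have a spectrin-actin binding domain and so tie membrane proteins to the spectrin-actin skeleton, next to the ankyrins. The products of Epb41l4a, Epb41l4b and Epb41l5 share the FERM domain but lack the spectrin-actin binding domain. Of these, Epb41l5 is known in mouse and fish for its part in epithelial polarity with the Crumbs complex and in gastrulation.

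The rule kept 7145 of 9896 barcodes (P6), 3153 of 4635 (P8) and 4757 of 5517 (P11). That was 94.36%, 96.07% and 96.24% of the barcodes within the gene and mitochondrial limits. The median depth of the horizontal cells was 12161, 20671 and 22106 UMIs at P6, P8 and P11. All 8 horizontal cell markers were found in each library, with summed levels of 7156, 8544 and 11834 counts per 1000000 UMIs (CPM). Lhx1, Onecut1 and Onecut2, on which the rule rests, are among these markers, so that their part of the sums follows from the rule. The libraries shared 13 (P6 and P8), 15 (P6 and P11) and 8 (P8 and P11) barcodes, of which 4, 8 and 5 were horizontal cells in both. Since each age is 1 library, no test between ages was possible, age cannot be told apart from the library, and every interval given is a 95% interval that covers counting error only.

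In horizontal cells Epb41l1 was the highest member at every age, and Epb41l2 was the lowest by far. Epb41l1 alone held 27.7%, 33.0% and 35.4% of the family's 12630, 5946 and 12118 UMIs at P6, P8 and P11. Epb41, Epb41l4b and Epb41l5 stood 1.70- to 2.635-fold lower at P11 than at P6, while Epb41l1, Epb41l3 and Epb41l4a lay within 1.07-fold of their P6 levels. All of these are summed levels of sorted cells, in which fewer expressing cells and less RNA per cell cannot be told apart.

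The promoters of Epb41l1, the highest member, and of Epb41 and Epb41l4b, which both stood lower at P8 and P11 than at P6, are shown because the results turn on these members. Each is the RefSeq window from 250 bases before to 50 bases after the start site nearest to the gene's 5' end, on build GRCm38.p6, read 5' to 3' on the gene's own strand, with every CG pair in capitals. The Epb41l1 window is chr2:156420659-156420958 (+), the Epb41 window chr4:132075264-132075563 (-) and the Epb41l4b window chr4:57143107-57143406 (-).
Epb41l1: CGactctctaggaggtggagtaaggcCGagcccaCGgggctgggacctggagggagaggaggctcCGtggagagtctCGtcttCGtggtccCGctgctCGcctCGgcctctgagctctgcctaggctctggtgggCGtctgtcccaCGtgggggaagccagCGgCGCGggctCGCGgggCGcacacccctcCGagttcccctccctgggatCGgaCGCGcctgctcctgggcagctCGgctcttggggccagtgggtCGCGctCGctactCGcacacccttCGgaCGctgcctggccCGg
Epb41: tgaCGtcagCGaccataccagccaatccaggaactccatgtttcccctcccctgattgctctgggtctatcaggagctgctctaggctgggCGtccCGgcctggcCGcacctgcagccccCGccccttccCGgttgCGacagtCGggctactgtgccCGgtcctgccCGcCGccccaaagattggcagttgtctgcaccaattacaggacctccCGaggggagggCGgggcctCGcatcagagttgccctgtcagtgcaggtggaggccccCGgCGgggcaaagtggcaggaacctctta
Epb41l4b: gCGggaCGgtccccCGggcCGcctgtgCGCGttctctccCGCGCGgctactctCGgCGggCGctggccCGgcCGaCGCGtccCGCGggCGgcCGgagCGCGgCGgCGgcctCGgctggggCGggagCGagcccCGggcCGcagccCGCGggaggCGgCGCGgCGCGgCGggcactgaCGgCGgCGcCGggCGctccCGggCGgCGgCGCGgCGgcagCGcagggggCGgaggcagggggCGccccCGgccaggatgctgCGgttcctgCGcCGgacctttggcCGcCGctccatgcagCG
These windows hold 29 (Epb41l1), 17 (Epb41) and 58 (Epb41l4b) CG pairs, against a median of 7 over 32851 RefSeq promoter windows. Their G and C content is 71.3%, 65.3% and 85%, against a median of 52.7%. The other windows listed for Epb41 hold 3 and 37 CG pairs, and those for Epb41l1 hold 33 and 15. Neither ATTGAT, a core searched for Onecut factors, nor TAATTA, a core searched for LIM-homeodomain factors, occurs on either strand of the 11 windows listed for 5 of the members. Of all the windows, 7.54% hold ATTGAT and 5.29% hold TAATTA. Because the counts come from transcripts' 3' ends, they do not tell which of several start sites was used.

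Among the members with a spectrin-actin binding domain, Epb41l1 (chromosome 2, 156420909 to 156543214, plus strand, in the mm10 build) had 42.55 CPM at P6, 31.4 CPM at P8 and 41.6 CPM at P11. Its counting intervals were 41.15 to 43.98, 30.01 to 32.8 and 40.35 to 42.85 CPM. The P11 and P6 intervals overlap, and P8 lay below both. The neuronal 4.1 protein that it encodes is known to bind AMPA receptor and inositol trisphosphate receptor subunits.

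Epb41 (chromosome 4, 131923413 to 132075321, minus strand) had 29.3 CPM at P6, 14.1 CPM at P8 and 17.2 CPM at P11. It had rank 2 at P6 and rank 4 at P8 and P11. The P11 level was 1.70-fold below that of P6 (interval 1.60 to 1.81), and the P8 level 2.08-fold below it (1.925 to 2.25). P11 was in turn 1.22-fold higher than P8 (1.13 to 1.33). Beside this, the heme synthesis gene Alas2, the only erythroid marker above 1 CPM in any library, was at 2.175, 0.304 and 0.339 CPM at P6, P8 and P11, and the hemoglobin genes Hbb-bs, Hba-a1 and Hba-a2 were each under 0.14 CPM. The part of red cell RNA in the Epb41 values was not tested.

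Epb41l3 (chromosome 17, 69075683 to 69289989, plus strand) had 18.95 CPM at P6, 14.4 CPM at P8 and 18.6 CPM at P11. It had rank 5 at P6 and rank 3 at P8 and P11, with Epb41 and Epb41l4b below it at the later ages. At P8 it could not be told apart from Epb41, with a ratio of 1.02 (0.93 to 1.12). Over all horizontal cells, all other neighbours in the order of levels lay apart beyond counting error at each age.

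Epb41l2 (chromosome 10, 25359798 to 25523519, plus strand) gave only 94, 22 and 53 UMIs over all horizontal cells at P6, P8 and P11. That is 1.14, 0.352 and 0.514 CPM, or 0.744%, 0.370% and 0.437% of the family's UMIs. Only 42, 8 and 31 of these UMIs lay in horizontal cells of the clusters in which at least 95% of cells met the rule, where the levels were 0.528 CPM (counting interval 0.380 to 0.713), 0.133 CPM (0.0574 to 0.262) and 0.306 CPM (0.208 to 0.434). Over all horizontal cells it stood 8.30- to 12.45-fold below the next member, Epb41l5, and in those clusters 20.2-fold at P6, 30.9-fold at P8 and 13.45-fold at P11. It was under the 10 CPM set for comparing ages. Its P11 level was 0.450 of the P6 level (0.315 to 0.637).

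Of the members without that domain, Epb41l4a (chromosome 18, minus strand) was the highest and had rank 3 at P6 and rank 2 at P8 and P11. It had 27.7 CPM at P6, 21.1 CPM at P8 and 25.9 CPM at P11. At P6 it lay just under Epb41, which was 1.06-fold higher (1.001 to 1.12).

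Epb41l4b (chromosome 4, 56991972 to 57143437, minus strand) had 22.6 CPM at P6, 9.405 CPM at P8 and 9.393 CPM at P11. Set against P6, it was 2.41-fold lower at P11 (2.225 to 2.60) and 2.40-fold lower at P8 (2.19 to 2.64). The ratio of P11 over P8 was 0.999 (0.90 to 1.11), so that the difference lay between P6 and the 2 later ages.

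Epb41l5 (chromosome 1, 119545037 to 119649000, minus strand) had 11.2 CPM at P6, 4.38 CPM at P8 and 4.27 CPM at P11. Set against P6, its level was 2.635-fold lower at P11 (2.35 to 2.96) and 2.56-fold lower at P8 (2.24 to 2.945). As with Epb41l4b, P11 and P8 could not be told apart by their counts, at a ratio of 0.97 (0.84 to 1.14).

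**Figure D1:**
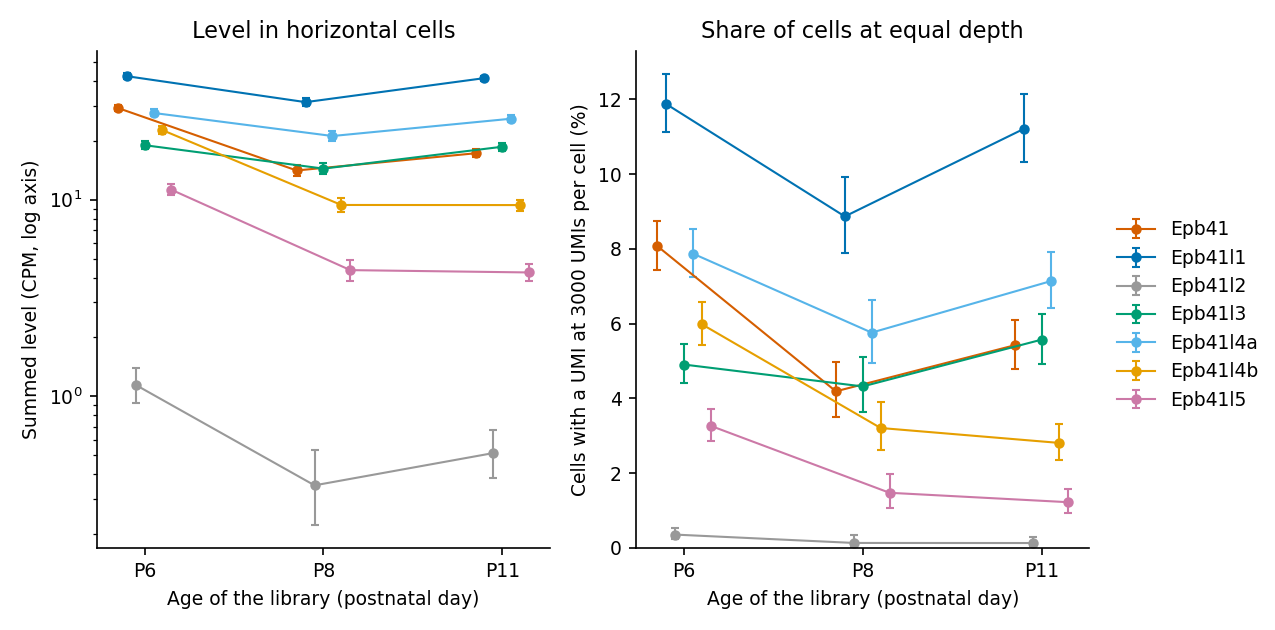
Left, summed level of each member (CPM, log axis) in horizontal cells of the P6, P8 and P11 libraries with exact Poisson 95% intervals; right, share of cells with a UMI after every cell was thinned to 3000 UMIs, with Clopper-Pearson 95% intervals. Epb41l1 is on top at every age, Epb41l2 at the bottom, and Epb41, Epb41l4b and Epb41l5 stand lower at P8 and P11 than at P6.

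UMIs were tagged near transcripts' 3' ends and were not divided by length in these levels. Whether UMIs from introns were counted is not given in the sources used here. Per kb of annotated gene span, Epb41l1 remained first, at 0.348, 0.257 and 0.340 CPM per kb at P6, P8 and P11. Per kb of merged exons it was again first, at 3.69, 2.72 and 3.61 CPM per kb. By that scale Epb41l4a was second at every age, at 3.05, 2.33 and 2.85 CPM per kb, and Epb41 had rank 4 or 5. Epb41l2 was last on both scales. Genes that overlap Epb41, Epb41l1 and Epb41l3 on the other strand and were counted in the libraries had at most 0.219 CPM.

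Spread over single cells, the members were sparse. When each cell was thinned to 3000 UMIs, Epb41l1 had a UMI in 11.9%, 8.87% and 11.2% of cells at P6, P8 and P11, and without thinning in 36.1%, 44.0% and 56.9%. Epb41 had one in 8.08%, 4.19% and 5.42% of thinned cells, and Epb41l5 in 3.265%, 1.47% and 1.22%. Epb41l4a was found in 7.875%, 5.76% and 7.135% of thinned cells, Epb41l3 in 4.905%, 4.32% and 5.57%, Epb41l4b in 5.98%, 3.21% and 2.81%, and Epb41l2 in 0.355%, 0.131% and 0.129%. No family UMI at all was found in 64.9%, 75.7% and 70.8% of thinned cells. The order of the ages in the thinned shares was that of the CPM for Epb41 and Epb41l1, while the unthinned share of Epb41l1 followed the depth of the libraries. The variance of the thinned Epb41l1 counts was 1.002, 1.024 and 1.015 times their mean at P6, P8 and P11, inside the range of genes of like level, for which the 95th percentile was 1.07, 1.08 and 1.07. Of the 21 pairs of member and library, 4 were above that range. They were Epb41l4a at P11 with 1.11 against a 95th percentile of 1.06, and Epb41 at P6 with 1.069 against 1.068. The others were Epb41l2 with 1.29 against 1.17 at P6 and 1.40 against 0.999 at P8. These Epb41l2 values rest on 27 thinned UMIs at P6 and 5 at P8, with 2 or more UMIs in only 2 cells and 1 cell.

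For the comparison of ages, a gene was counted as higher or lower when its level lay at least 1.5-fold apart and reached 10 CPM at the higher age. In P8 over P6, 6 members were measured, none was counted as higher (7.57% of the 8957 genes measured were) and 3 were counted as lower (23.2% of all). These were Epb41, Epb41l4b and Epb41l5, with log2 ratios of -1.06, -1.26 and -1.36. In P11 over P8, 4 members were measured and none was counted either way, against 10.7% of 8671 genes counted as higher and 4.36% as lower. In P11 over P6, of 6 measured members none was counted as higher (7.56% of 9080 genes) and the same 3 were counted as lower (13.6% of all), with log2 ratios of -0.77 (Epb41), -1.27 (Epb41l4b) and -1.40 (Epb41l5). Epb41l4b and Epb41l5 reached 10 CPM only at P6, so that their being measured already rests on the age at which they were high.

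Epb41l1, Epb41l3 and Epb41l4a lay between the limits. Epb41l2, under the 10 CPM minimum and so in no count, had log2 ratios of -1.70 in P8 over P6, 0.55 in P11 over P8 and -1.15 in P11 over P6, and with no minimum it would also be counted as lower in P8 over P6 and in P11 over P6. In P8 over P6 the log2 ratios of the members between the limits were -0.44 for Epb41l1, -0.40 for Epb41l3 and -0.39 for Epb41l4a, and in P11 over P8 they were 0.41, 0.37 and 0.29 in the same order. In P11 over P6 they were -0.03, -0.03 and -0.10. The median over all genes measured was -0.18 in P8 over P6, 0.10 in P11 over P8 and -0.08 in P11 over P6. Another scaling of the libraries (the trimmed mean of M-values, TMM) moves the median of all genes to 0.11 in both P8 over P6 and P11 over P6. By it the log2 ratios of Epb41l1, Epb41l3 and Epb41l4a became -0.15, -0.11 and -0.10 in P8 over P6, and 0.17, 0.17 and 0.10 in P11 over P6. The log2 ratio of Epb41 in P11 over P6 was -0.57 by that scaling, just short of 1.5-fold, while Epb41l4b and Epb41l5 stayed past it.

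Every measured member is a long gene, with spans of 104 kb (Epb41l5) to 214 kb (Epb41l3), and long genes as a whole were lower in the P8 library. Among the 1825 genes of the longest of 5 span groups, of at least 85.0 kb, the median log2 ratio was -0.72 in P8 over P6, 0.41 in P11 over P8 and -0.29 in P11 over P6. Of these genes 59.6% were counted as lower in P8 over P6 and 27.9% in P11 over P6. Against those medians, Epb41l1, Epb41l3 and Epb41l4a stood higher than the typical long gene in P8 over P6 and P11 over P6. Epb41, Epb41l4b and Epb41l5 stood lower in both. Of these, Epb41l4b and Epb41l5 reached 10 CPM only at P6, so that their being measured rests on the age they are compared with. In P11 over P8 Epb41l1 equalled the long-gene median of 0.41. Epb41l4b and Epb41l5, under 10 CPM at both of these ages, lay under it at -0.00 and -0.04. The part of gene length in these ratios was not tested.

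**Figure D2:**
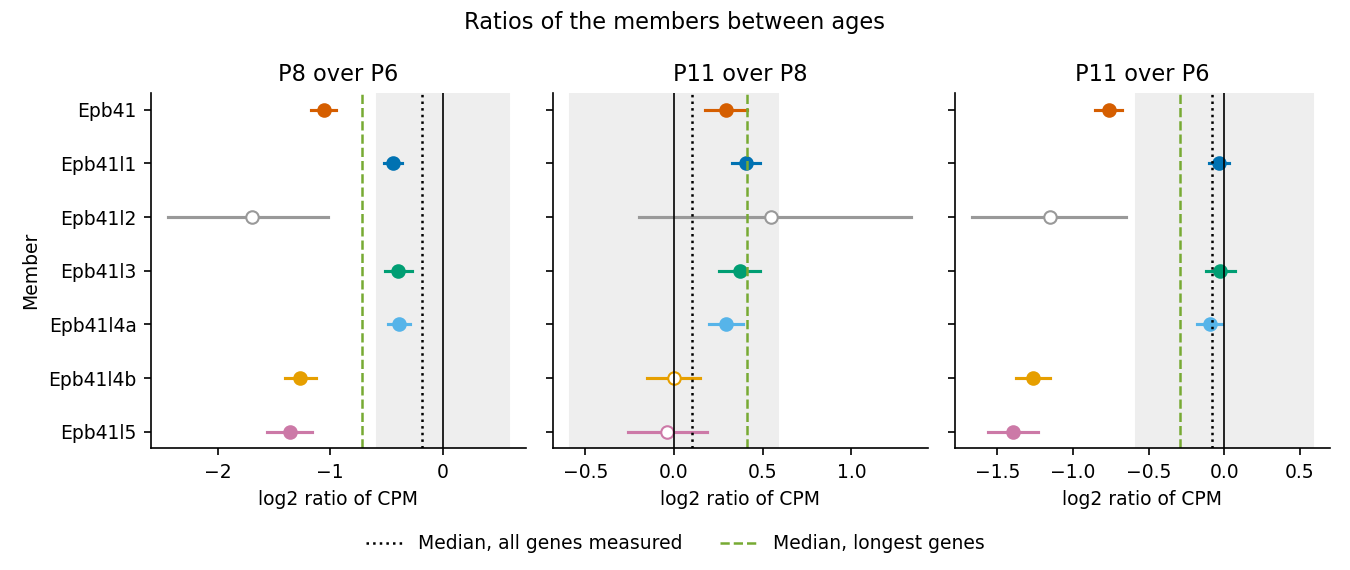
Log2 ratio of CPM for each member in P8 over P6, P11 over P8 and P11 over P6, with 95% counting intervals; open points are members under 10 CPM at both ages, the grey band lies within 1.5-fold, and vertical lines give the medians of all genes measured (dotted) and of the longest genes (dashed). Epb41, Epb41l4b and Epb41l5 lie left of both lines in P8 over P6 and P11 over P6.

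The same libraries held a few other cells, and there the family looked different. Rod-like clusters, led by Sag and Pdc, had 47 cells at P8 and 42 cells at P11. Of these cells 10.64% at P8 and 4.76% at P11 met the horizontal cell rule and so are in the horizontal cell sums as well. In the horizontal cells Epb41 had 14.1 CPM at P8 and 17.2 CPM at P11, against 1069 and 1504 CPM in the rod-like cells. Epb41l2 had 0.352 and 0.514 CPM in the horizontal cells, against 685 and 980 CPM in the rod-like cells of P8 and P11. Epb41 and Epb41l2 together with Epb41l5 thus made up nearly all of the rod-like family UMIs, Epb41 with 52.9% and 52.4%, Epb41l2 with 33.9% and 34.1%, and Epb41l5 with 10.0% and 7.59%.

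Epb41l1, the leading member of horizontal cells at 31.4 CPM (P8) and 41.6 CPM (P11), gave 2 UMIs in the rod-like cells of P8 and 1 UMI in those of P11, which is 14.0 and 9.90 CPM. With so few UMIs the ratio of rod-like to horizontal cells, 0.445 (0.054 to 1.61) at P8 and 0.238 (0.0060 to 1.33) at P11, does not set them apart by counting. Its share of the family's UMIs was 33.0% at P8 and 35.4% at P11 in horizontal cells, against 0.692% and 0.345% in rod-like cells. At 1500 UMIs per cell, Epb41l1 had a UMI in 4.32% (P8) and 6.12% (P11) of horizontal cells, and in 0 of 45 and 0 of 40 rod-like cells, which allows shares of up to 7.87% and 8.81% (Clopper-Pearson). The median depth was 20671 and 22106 UMIs in the horizontal cells, and 2371 and 1988 UMIs (P8 and P11) in the rod-like clusters. At the same 1500 UMIs Epb41l2 had a UMI in 0.0952% and 0.147% of horizontal cells, against 62.2% and 75% of rod-like cells, and Epb41 in 2.19% and 2.375% of horizontal cells, against 73.3% and 80% of rod-like cells (P8 and P11).

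**Figure D3:**
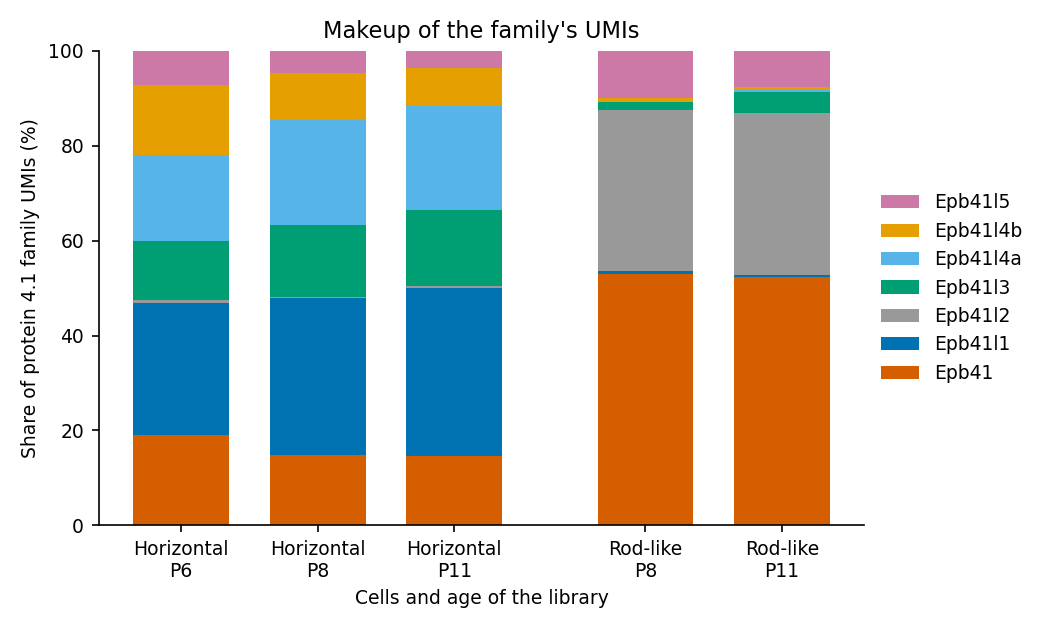
Share of the family's UMIs (%) held by each member in horizontal cells of the P6, P8 and P11 libraries and in the rod-like cells of the P8 and P11 libraries. Epb41l1 holds 27.7% to 35.4% in horizontal cells, and Epb41 and Epb41l2 hold most of the rod-like UMIs.

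A Müller glia-like cluster of 60 cells at P6 had 178 CPM of Epb41, 239 CPM of Epb41l2 and, from 7 UMIs, 28.3 CPM of Epb41l5, or 2.52 times (1.01 to 5.21) the horizontal cell level. An unnamed P6 cluster of 159 cells, whose leading genes include Otx2os1, Fabp7 and Pdc, had 555 CPM of Epb41, 246 CPM of Epb41l2 and 154 CPM of Epb41l5. Horizontal cells of that library were below both clusters, at 29.3, 1.14 and 11.2 CPM of Epb41, Epb41l2 and Epb41l5. In the Müller glia-like cluster 18.33% of cells, and in the unnamed one 14.47%, met the horizontal cell rule and so are in these sums as well. The summed rod markers in horizontal cells were 7.16, 6.35 and 5.42 CPM at P6, P8 and P11, with 4 of 6 under 1 CPM in each library. The bipolar markers summed to 19.8, 4.73 and 3.97 CPM, mostly Lrtm1 at 15.7, 2.575 and 2.27 CPM, and the Müller glia markers to 10.9, 5.63 and 10.1 CPM. The ganglion cell markers summed to 50.3, 25.3 and 18.3 CPM, mostly Slc17a6 at 46.2, 22.6 and 12.55 CPM. At P6 Slc17a6 was among the leading genes of a cluster of 1442 cells, of which 99.72% met the horizontal cell rule. The microglia markers summed to 11.3, 5.01 and 4.18 CPM, mostly P2ry12 at 9.68, 4.11 and 2.995 CPM. The amacrine markers summed to 523, 511.7 and 499.6 CPM, mostly Slc32a1 at 272.1, 258.9 and 238.2 CPM and Pax6 at 231.9, 240.4 and 245.4 CPM. Gad2, from the same list, was at 6.415, 1.81 and 0.785 CPM. The part of RNA from other cells in the horizontal cell sums was not tested.

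Counted against each other, Epb41 had 25.7, 40.05 and 33.6 UMIs for each Epb41l2 UMI in horizontal cells at P6, P8 and P11, against 1.56 at P8 and 1.54 at P11 in rod-like cells, a cluster that P6 lacked. For Epb41l5 the figures were 9.84, 12.45 and 8.30 per Epb41l2 UMI in horizontal cells, against 0.296 at P8 and 0.222 at P11 in rod-like cells. Within the clusters in which at least 95% of cells met the rule, the ratio of Epb41 was 52.4 in the P6 library (interval 38.6 to 72.9), 98.4 in the P8 library (49.7 to 228.7) and 54.7 in the P11 library (38.4 to 80.8), and that of Epb41l5 was 20.2, 30.9 and 13.45. When horizontal cells were restricted to those clusters, or to cells without a UMI of any rod, bipolar or Müller glia marker, the log2 ratios of P11 over P6 were -0.72 and -0.66 for Epb41, -1.27 and -1.21 for Epb41l4b, and -1.37 and -1.25 for Epb41l5.

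Clustering within each library gave 7 (P6), 6 (P8) and 9 (P11) clusters in which at least 95% of cells met the horizontal cell rule. These clusters are parts of 1 library and not replicates. Epb41l1 was between 29.1 and 51.8 CPM over them at P6, between 18.7 and 38.3 CPM at P8 and between 33.7 and 51.2 CPM at P11. Epb41l4b lay between 9.49 and 27.1 CPM at P6, between 4.24 and 12.4 CPM at P8 and between 6.09 and 12.4 CPM at P11, and Epb41l2 was under 1 CPM in all 22. At P11, all 6 members other than Epb41l2 were lowest in the same cluster of 468 cells, led by Rogdi, Asna1 and Acd, and at P8 in a cluster of 226 cells led by Tmem59l, Acd and Rogdi. Epb41 there had 9.20 CPM at P11 and 5.80 CPM at P8. A P11 cluster of 136 cells led by Anxa2 and Tmem176b had the highest Epb41l3, at 27.4 CPM (21.7 to 34.2), against 10.7 CPM in the lowest cluster.

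**Figure D4:**
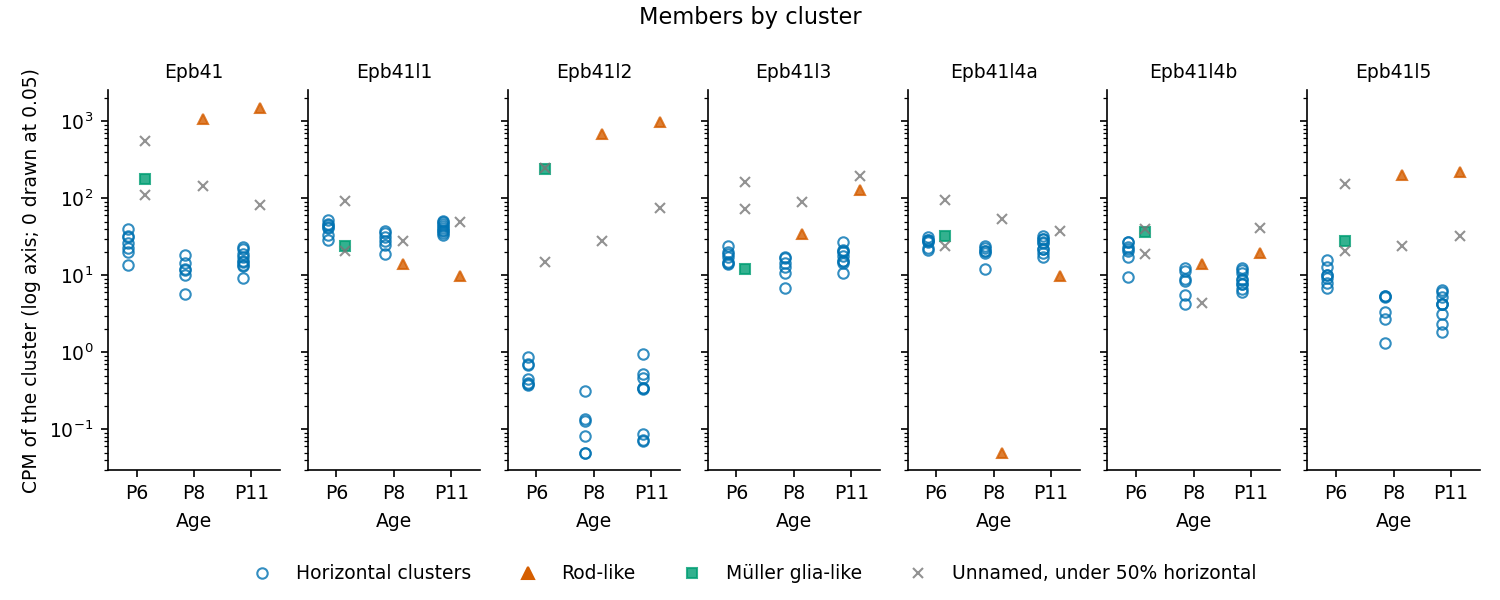
CPM of each member (log axis, 0 drawn at 0.05) in every cluster of the P6, P8 and P11 libraries with at least 95% horizontal cells (circles), and in rod-like (triangles), Müller glia-like (square) and unnamed clusters (crosses) with under 50% horizontal cells. Epb41, Epb41l2 and Epb41l5 are higher in the rod-like clusters than in any horizontal cluster, and Epb41l1 is not.

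Malat1, a nuclear RNA, differed between the libraries, at 20337, 15319 and 21409 CPM at P6, P8 and P11. When each library was split at its median Malat1 share, all members apart from Epb41l2 were higher in the cells above the median at every age. Epb41l1 had 45.8 CPM above the median and 38.8 CPM below it at P6, 35.4 and 27.4 CPM at P8, and 45.1 and 37.7 CPM at P11. Epb41l5 had 13.0 CPM above and 9.20 CPM below at P6, 5.75 and 3.03 CPM at P8, and 5.05 and 3.39 CPM at P11. Among the cells above the median the log2 ratio of P11 over P6 was -0.81 for Epb41 and -1.36 for Epb41l5, and among the cells below it -0.68 and -1.44. For Epb41l1 it was -0.02 above and -0.04 below. In P8 over P6 the log2 ratios above the median were -0.97 (Epb41), -1.17 (Epb41l5) and -0.37 (Epb41l1). Below the median they were -1.13, -1.60 and -0.50 in the same order. The part of nuclear RNA content in the levels was not tested.

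**Figure D5:**
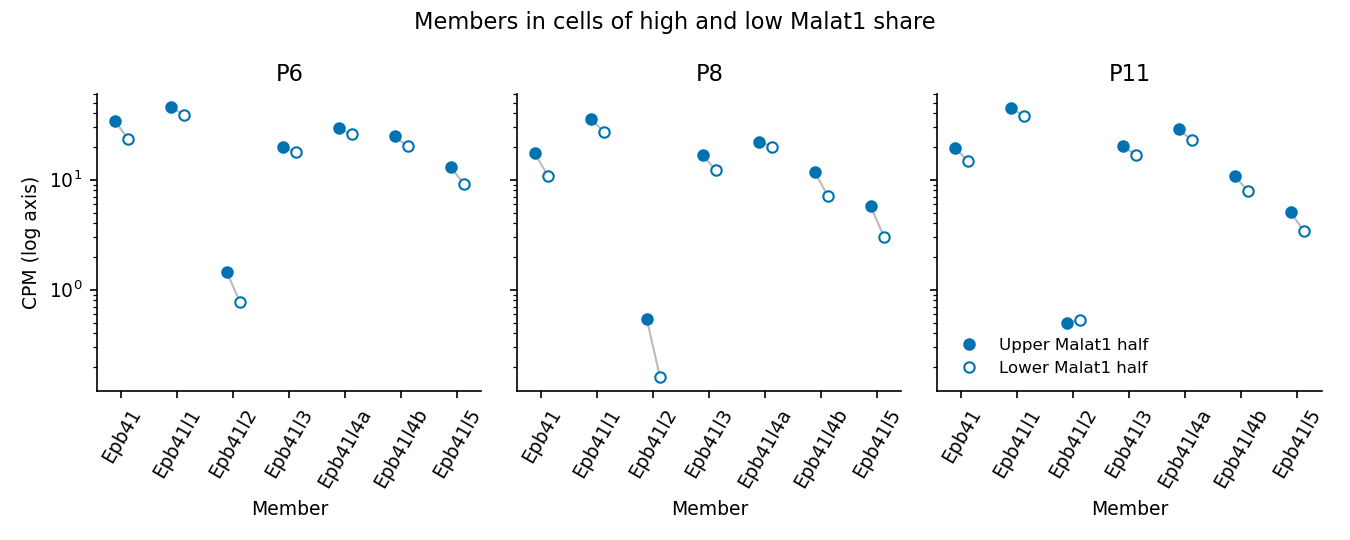
CPM of each member (log axis) in the horizontal cells above (filled) and below (open) the median Malat1 share within the P6, P8 and P11 libraries. Cells above the median are higher for every member and age apart from Epb41l2 at P11, which rests on 53 UMIs.

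Genes around the family, that is reported partners, related complexes and other genes with a FERM domain, were read from 4 lists. Their ratios in P11 over P6 are set beside the 7.56% higher and 13.6% lower of all genes. Of 18 spectrin-actin junction genes 15 were measured, 3 of them counted as higher and 3 as lower, with a median log2 ratio of -0.31. The adducin gene Add3, whose product caps actin filaments and recruits spectrin, was at 66.5, 75.5 and 127 CPM at P6, P8 and P11. Dmtn, which encodes the actin-bundling dematin, was at 30.05, 34.6 and 49.7 CPM. Beta actin (Actb) was at 2274, 1555 and 1077 CPM. The tropomyosin gene Tpm3 was the highest of the list, at 4467, 4408 and 3560 CPM.

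Of 22 genes of membrane partners and scaffolds reported to bind 4.1 proteins, 17 were measured, 1 counted as higher and 6 as lower, with a median log2 ratio of -0.25. Gria1, the AMPA receptor subunit gene whose product is a known partner of the neuronal 4.1 protein, was at 61.05, 12.04 and 3.55 CPM at P6, P8 and P11, that is 17.2-fold lower in P11 over P6. Cntnap2, an axonal adhesion gene whose product binds brain 4.1 protein, was at 88.65, 32.1 and 21.6 CPM, while the related Cntnap1 was at 54.5, 86.45 and 112 CPM. The scaffold gene Dlg2 was the highest of this list at 805, 281 and 507 CPM.

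Of 16 genes of the Crumbs and polarity complexes 11 were measured, 2 counted as higher and none as lower, with a median log2 ratio of 0.16. Prkci, which encodes an atypical protein kinase C, was at 14.5, 21.4 and 36.25 CPM at P6, P8 and P11, Lin7a at 41.9, 46.1 and 66.3 CPM, and Pard6a at 60.6, 100.3 and 84.3 CPM. The Crumbs genes Crb1, Crb2 and Crb3 were below the minimum, at most 1.555 CPM. Of 34 other FERM domain genes 20 were measured, 1 counted as higher and 4 as lower, with a median log2 ratio of -0.11. Frmpd4 was at 52.5, 36.1 and 136 CPM, Frmd4a at 671, 156 and 269 CPM, and moesin (Msn) at 14.5, 9.63 and 7.07 CPM.

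Genes nearest in pattern to Epb41l1 and Epb41l4a, the 2 members of highest mean CPM, were sought over the 3 libraries among 4233 genes with at least 50 CPM at their highest age, by the distance between centred log2 levels. Those nearest to Epb41l1 were Phf20 at 78.6, 57.6 and 76.65 CPM, Nbas at 54.3, 39.7 and 53.1 CPM and Trip12 at 99.3, 72.4 and 96.0 CPM (P6, P8 and P11). Those nearest to Epb41l4a were Birc6 at 154, 118 and 144 CPM, Dusp3 at 72.9, 55.97 and 68.2 CPM and Epn1 at 97.8, 75.2 and 91.9 CPM. With 3 points a match is common: 126 genes lay within a distance of 0.1 of Epb41l1 and 158 within 0.1 of Epb41l4a.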

How the data were processed

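Each of the 3 libraries holds sorted mouse retinal cells. The values the authors deposited are raw UMI counts; the submitters' processing notes name Cell Ranger 7.1.0 and mm10. Which annotation release and intron setting were used is not given in the sources used here, and the labels name both the v3 and the v3.1 form of the kit. Totals were 87939202, 65546590 and 105561999 UMIs at P6, P8 and P11, and 82305608, 62520239 and 103160766 over horizontal cells. Positions came from GENCODE vM21 (32235 of 32285 features matched), promoters from RefSeq; 78 features sharing a symbol were left out of lists and background.

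Counts of horizontal cells were summed per library and given as CPM. Sums carry exact Poisson, ratios exact conditional binomial and shares Clopper-Pearson intervals of 95%, for counting error only; a count of 0 entered ratios as 3 counts. The groups were taken from the labels, 1 library per age, so no test was run. Each library was clustered separately (Leiden, resolution 1, 2000 variable genes, 30 components, 15 neighbours; scanpy 1.11.5, leidenalg 0.10.2, Python 3.11.15), with the members and gene lists kept out. A cluster was named from fixed markers, of which at least 3 had to be detected. The threshold set by Scrublet itself picked out 0%, 0.244% and 0%, too few to have worked, so doublets stayed in and the 512, 165 and 230 cells of highest score were removed only in an alternative. Alternatives were TMM (edgeR 4.0.16) and median-of-ratios scaling (DESeq2 1.42.0), stricter cell limits, other fold and CPM limits, thinning and a split by Malat1 share; those by cluster and by marker-free cells were chosen after seeing the data. The scripts were tested on simulated data.

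Members and gene lists were chosen with earlier results of these data known. Named were the 7 members, from each list up to 2 measured genes farthest beyond 1.5-fold each way in P11 over P6 and the highest gene, and for each of the 2 members of highest mean CPM over the 3 libraries (Epb41l1 and Epb41l4a) the 3 genes of nearest pattern; some genes that this rule names are left out of the text, and other genes were named for their role after their values were seen.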

Additional observations from a re-analysis of the deposited data

How the results depend on the processing

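TMM and median-of-ratios scaling and other fold or CPM limits cannot change the order of members within a library. Under every other alternative run, Epb41l1 was the highest member in every library. Its share of the family's UMIs at P6, P8 and P11 moved beyond counting error to 26.6% (P6) and 31.4% (P8) as a mean over cells, to 33.7% (P11) when cells were thinned to 3000 UMIs, to 28.6% (P6) in cells with no rod, bipolar or Müller glia marker UMI, to 33.9%, 41.2% and 44.2% per kb of span, and to 34.4% (P11) per kb of merged exons. The 3 members counted as lower in P8 over P6 and in P11 over P6 became 0 in both with a minimum of 50 CPM, which none of the members reaches. In P11 over P6 the count became 1 with median-of-ratios scaling, where Epb41 had a log2 ratio of -0.57 and Epb41l5, at -1.20, came under the 10 CPM minimum. The same scaling left 2 in P8 over P6, without Epb41l5, while in P11 over P6 TMM scaling and a fold limit of 2 each left 2, without Epb41. With no CPM minimum the count was 4 in both, with Epb41l2. Of 252 log2 ratios recomputed, 195 stayed within their counting interval and none of the called ones changed sign. Most alternatives took largely the same cells, so that many of these ratios had little room to move. By TMM and by median-of-ratios scaling, all members but Epb41l2 moved out of their intervals in P8 over P6 and P11 over P6. No paired analysis was possible because each age is 1 library. Depth limits Epb41l2 most, with 22 UMIs at P8, and its log2 ratio of P11 over P8 lay between -0.83 and 1.95 over the alternatives.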

Other observations

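Epb41l3 was highest outside the horizontal and rod-like cells, in unnamed clusters that the labels put in no group. A P6 cluster of 123 cells, led by Etl4, Nrg3 and Sox2ot, had 162 CPM of Epb41l3, 95.1 CPM of Epb41l4a and 92.1 CPM of Epb41l1, against 18.95, 27.7 and 42.55 CPM in the horizontal cells of that library. A P11 cluster of 119 cells, led by Pcp4, Calb2 and Zfp804b, had 194 CPM of Epb41l3, or 37.9% of its family UMIs, against 18.6 CPM and 15.8% in horizontal cells. Its Epb41l4b, at 41.0 CPM, was 4.36 times (3.22 to 5.78) the 9.39 CPM of the horizontal cells. In these clusters 36.6% and 23.5% of cells met the horizontal cell rule, and their values describe these 2 libraries alone.

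Low-UMI clusters that carried horizontal cell markers also stood apart. Of their cells 78.86% (P6), 87.7% (P8) and 81.97% (P11) met the horizontal cell rule, and the levels given are those of all cells of a cluster. At P6 such a cluster of 667 cells, with a median of 2727 UMIs, had 69.5 CPM of Epb41 (59.3 to 80.9). It had 10.5 CPM of Epb41l2 and 41.8 CPM of Epb41l4b. Over all horizontal cells of that library these members had 29.3, 1.14 and 22.6 CPM. Epb41l1 was at 44.35 CPM (36.3 to 53.65) in this cluster, so that Epb41 was the highest member there. The leading gene of this cluster was Lrtm1, from the bipolar marker list. The part of RNA from other cells in its levels was not tested. A P8 cluster of 252 cells, with a median of 5314 UMIs, had 23.5 CPM of Epb41l4b (17.4 to 31.2), against 9.405 CPM over all horizontal cells. Epb41l1 was its highest member, at 42.7 CPM. At P11 the like cluster of 244 cells had 32.2 CPM of Epb41 (23.2 to 43.5) and no Epb41l2 UMI, which allows up to 2.825 CPM. Its Epb41l4b was at 20.7 CPM (13.6 to 30.1), against 9.393 CPM over all horizontal cells, and Epb41l1 was its highest member, at 52.1 CPM.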
